A study of Homo sapiens with 12 samples.

Results

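Long intergenic non-coding RNA genes, whose symbols begin with LINC, were examined in MDA-MB-231 cells, an established line derived from a triple-negative breast cancer. Genes were selected on their mean level over the 12 libraries, which had to be at least 1 CPM (the count divided by the library's total count, times 1e6). This left 102 expressed LINC genes of 2227 LINC symbols and of 40929 gene symbols in all. The choice used the mean level over all libraries and no contrast, so the levels below are a description, while the comparisons between groups were tested.

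Cells were cultured for 48 h in 4 groups of 3 libraries. The LGCAR group received 5 mM glucose with 25 µM cariporide, the LG group 5 mM glucose alone, the CAR group 10 mM glucose with 25 µM cariporide, and the NG group 10 mM glucose alone. Cariporide is a selective inhibitor of the sodium-proton exchanger NHE1, which moves protons out of the cell. The labels describe all cells as wild type and name 1 cell line, and nothing in them shows that a group's replicates were grown separately, so p-values reflect only the variation among these libraries, which may be technical. The comparisons with NG share the same 3 NG libraries.

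Long intergenic non-coding RNAs are transcripts, mostly made by RNA polymerase II, that lie between protein-coding genes and have no long conserved reading frame. Many are spliced and polyadenylated, and some act in the nucleus at the locus they come from, some bind proteins or microRNAs elsewhere, and a few have turned out to encode micropeptides. For most LINC symbols no function is established, and their levels are usually low and strongly dependent on the cell type.

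The libraries held 18069004 to 24837409 counts. Of the labelled line's markers, VIM averaged 1719 CPM, CD44 689 CPM and AXL 822 CPM, while ESR1 averaged 0.0403 CPM and PGR was at 0 in every library. ERBB2 averaged 59.4 CPM, EPCAM 11.7 CPM and CDH1 1.54 CPM. The list of 6 markers expected in the line also held KRT8, KRT18 and MSN. Of these 6, 1 was called lower in LGCAR than in NG, against 4.12% of all tested genes. Of the 5 expected to be low or absent, 3 were tested. Among them 1 was called higher in LGCAR than in NG, against 4.63%, and 1 in LGCAR than in CAR, against 0.973%. Of 7 markers of other cell types, KRT5 had no count, and KRT14, PTPRC and ALB, at 0.00770, 0.143 and 0.0531 CPM, were too low to be tested. COL1A1, PECAM1 and MUC1 averaged 8.02, 1.98 and 28.02 CPM, and MUC1, an epithelial mucin gene, was the only one of these 3 called in any comparison. It averaged 31.5 ± 1.54 CPM in LGCAR and 24.2 ± 3.26 CPM in NG (SD, n = 3 each), higher by 0.38 (log2 scale, SE 0.112, edgeR adjusted p = 0.0480). The 7 genes summed to 40.1 to 43.8 CPM in LGCAR, 35.7 to 45.3 CPM in LG, 33.8 to 38.1 CPM in CAR and 29.9 to 36.9 CPM in NG, and their part in the results below was not tested. TXNIP, a glucose-responsive arrestin gene, averaged 86.2 ± 7.55 CPM in LGCAR, 46.4 ± 5.07 CPM in LG, 252 ± 9.32 CPM in CAR and 264 ± 12.5 CPM in NG (SD, n = 3 each). It was low in both groups with 5 mM glucose.

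Promoter sequences are shown for the pair of genes that were called in 3 comparisons each, LINC02009 and LINC00472. No call rests on these sequences, and their part in the changes was not tested. Both windows run from 250 bases before to 50 bases after the RefSeq gene start on GRCh38.p14, on the minus strand, at chr3:46423618-46423917 for LINC02009 and chr6:71420696-71420995 for LINC00472. Capitals mark matches to 5 short motifs chosen after these sequences had been seen, searched on both strands: the E-box CACGTG, the AP-1 element TGANTCA, the CCAAT box CCAAT, the GC box GGGCGG and the TATA element TATAAA.
LINC02009: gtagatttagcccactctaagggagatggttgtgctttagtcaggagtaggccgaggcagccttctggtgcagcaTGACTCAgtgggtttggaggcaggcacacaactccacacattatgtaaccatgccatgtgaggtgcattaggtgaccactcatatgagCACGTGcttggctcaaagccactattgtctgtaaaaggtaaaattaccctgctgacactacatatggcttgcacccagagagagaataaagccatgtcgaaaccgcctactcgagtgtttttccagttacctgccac
LINC00472: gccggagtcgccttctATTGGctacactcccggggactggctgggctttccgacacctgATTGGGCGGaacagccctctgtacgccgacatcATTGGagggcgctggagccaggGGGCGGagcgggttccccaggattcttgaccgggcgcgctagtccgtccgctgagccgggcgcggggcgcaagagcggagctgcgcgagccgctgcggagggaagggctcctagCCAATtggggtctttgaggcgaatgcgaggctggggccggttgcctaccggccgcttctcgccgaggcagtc
The LINC02009 window, with a GC content of 49.0%, held 1 E-box and 1 AP-1 match and none of the other 3 motifs. Among the promoters of 27305 genes of the same length in the RefSeq table, 7.43% held the E-box and 7.76% the AP-1 element. The LINC00472 window, with a GC content of 68.7%, held 4 CCAAT boxes and 2 GC boxes, and 1 GC box overlapped a CCAAT box. CCAAT boxes were in 35.7% and GC boxes in 44.6% of all promoters. A match is a description of these letters only.

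Promoters of 76 of the 102 LINC genes were in the table, with a median GC content of 58.5% against 58.3% over all promoters. The CCAAT box was in 39 of them, or 51.3%, against 35.7% of all promoters, and GC boxes in 38, against 44.6%. The AP-1 element was in 11, or 14.5%, against 7.76%, the TATA element in 8, or 10.5%, against 11.95%, and the E-box in 7, or 9.21%, against 7.43%. These differences were not tested.

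All LINC symbols together took 0.156% to 0.182% of the counts of a library, and the 102 expressed genes took 95.03% to 95.75% of that. LINC03061 alone held 53.7% to 55.7% of the counts of the 102 genes. A total of 17 genes reached 10 CPM, 59 lay from 2 to under 10 CPM and 26 from 1 to under 2 CPM. Their median was 4.17 CPM, against 19.7 CPM over the 15104 genes tested. LINC genes were thus on the low side of the tested genes, and a typical comparison was less precise: the median standard error of the log2 fold change between LGCAR and NG was 0.156 over LINC genes and 0.0893 over all tested genes.

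The 3 genes just inside the minimum were LINC01204 at 1.13 CPM, LINC01638 at 1.10 CPM and LINC02636 at 1.06 CPM. Just outside were LINC00880 at 0.996 CPM, LINC00899 at 0.959 CPM and LINC03006 at 0.928 CPM. Of the 2125 LINC symbols under the minimum, 1425 had no count in any library and 621 had counts but were too low to be tested. The remaining 79 were tested, and none was called in any comparison. All 102 expressed genes were tested.

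The 10 genes with the highest mean CPM were LINC03061 at 884, LINC01000 at 64.9, LINC00674 at 63.2, LINC00472 at 54.5, LINC02693 at 32.9, LINC01605 at 29.2, LINC00205 at 25.7, LINC03040 at 19.03, LINC02009 at 18.5 and LINC01278 at 15.7 CPM. Since a long transcript gives more reads, genes were set beside each other per kilobase of exon, which GENCODE 29 gave for 95 of them. On that scale LINC03061 had 174 CPM per kb, LINC00674 86.1, LINC01605 19.2, LINC00472 15.8, LINC02009 6.29 and LINC02693 2.23 CPM per kb, where the median was 1.33 CPM per kb. LINC03061 was the highest on both scales, while LINC02693, with 14794 bases of exon, stood lower per kilobase than by counts. LINC01000 had no exon length in that annotation.

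**Figure D1:**
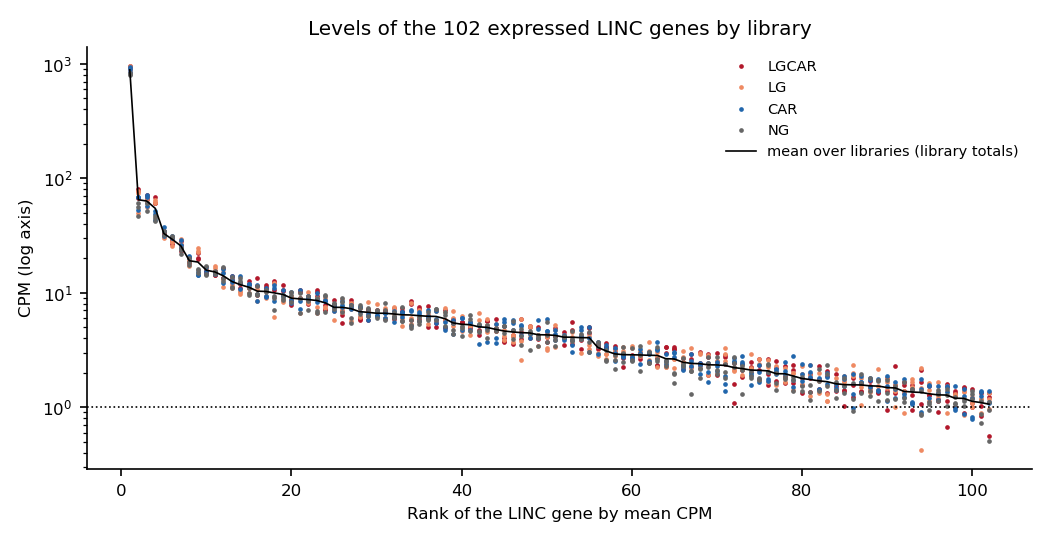
Levels of the 102 expressed LINC genes. Each column of points is 1 gene in 12 libraries in CPM scaled by TMM factors (log axis), ordered by mean CPM over library totals (line); the dotted line is the minimum of 1 CPM, and LINC03061 at rank 1 stands apart from the next gene, at 64.9 CPM.

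RefSeq gave a position for 100 of the 102 genes, of which 99 are annotated as lncRNA and 1, LINC02798, as protein-coding. They lie on 22 chromosomes, with 12 each on chromosomes 1 and 7. GENCODE 29 called 69 lincRNA, 10 processed transcript, 8 pseudogenes of transcribed classes (6 unprocessed, 1 processed and 1 unitary), 4 antisense, 2 bidirectional promoter lncRNA and 2 protein-coding. In 15 genes a near copy elsewhere matched at least 50% of the transcript at 95% identity or more, among them LINC00674, LINC01145, LINC00342, LINC00623, LINC01001 and LINC01002, so their counts are uncertain where reads could be split. The use of strand in counting is not given among the sources used here, and 13 genes overlapped another gene's exons on the opposite strand over at least 10% of their own.

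Over the groups the LINC genes varied little. The highest group mean exceeded the lowest by a median of 1.24 times, from 1.05 times for LINC01588 to 1.80 times for LINC01085, and the median coefficient of variation within groups was 12.1%. No gene passed a 2-fold difference in any of the comparisons. The counts in single libraries ran from 9 to 22706, with none at 0.

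The 5 comparisons between groups and the interaction were fitted over all 15104 tested genes with edgeR's quasi-likelihood test, and a gene was called at a Benjamini-Hochberg adjusted p under 0.05. Between LGCAR and NG, 4 LINC genes were higher and 0 lower, or 3.92% of the 102, against 8.75% of all tested genes called in either direction, 4.63% higher and 4.12% lower. Between LG and NG, 2 were higher and 0 lower, or 1.96%, against 1.73% of all genes, 1.0% higher and 0.728% lower. Between LGCAR and CAR, 2 were higher and 1 lower, or 2.94%, against 1.65% of all genes, 0.973% higher and 0.675% lower. The calls name 5 genes, LINC02009, LINC00472, LINC01355, LINC03061 and LINC00960. How the LINC share stood to that of all genes depended on the libraries. In LGCAR against NG, with 1 library left out, 3 to 7 LINC genes were called while the share of all genes ran from 0.889% without NG replicate 3 to 17.2% without CAR replicate 1. The LINC share was the higher of the 2 without LGCAR replicate 1, 2 or 3, where 1.28%, 2.11% and 2.18% of all genes were called, and without NG replicates 2 and 3 in turn, where 1.90% and 0.889% were.

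At an unadjusted p under 0.05 there were 23 LINC genes in LGCAR against NG, or 22.5%, against 28.9% of all genes, 14 in LG against NG, or 13.7%, against 15.2%, and 15 in LGCAR against CAR, or 14.7%, against 17.6%. These counts were 12 without NG replicate 1 and LGCAR replicate 3 together in the first, 9 without NG replicate 2 in the second, and 9 in the third without LGCAR replicate 1 or with the ribosomal RNA share in the fit. The 3 LGCAR libraries lay above the 3 NG libraries in 23 LINC genes, or 22.5%, against 20.7% of all genes. They lay below in 5, or 4.90%, against 17.5%. LG lay above NG in 12, or 11.8%, and below in 5, or 4.90%, against 9.86% and 9.51%. LGCAR lay above CAR in 9, or 8.82%, and below in 14, or 13.7%, against 13.4% and 11.9%. In both comparisons with NG here, the LINC shares above were close to those of all genes, while the shares below were smaller. Both use the same 3 NG libraries, and these differences were not tested.

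LINC02009 lies at chr3:46416516-46423667 on the minus strand of GRCh38, annotated as a lincRNA with 5 exons, between CCRL2, which encodes an atypical chemokine receptor, and LTF, which encodes lactoferrin. Its TMM-scaled level was 19.98, 22.2 and 19.8 CPM in LGCAR, 22.7, 24.8 and 23.2 CPM in LG, 15.02, 14.2 and 14.2 CPM in CAR, and 14.7, 15.7 and 16.1 CPM in NG. The 6 libraries with 5 mM glucose all lay above the 6 with 10 mM glucose, with no overlap. LINC02009 rose in LG against NG by 0.61 on the log2 scale (SE 0.0691, edgeR adjusted p = 0.000311), in LGCAR against NG by 0.41 (SE 0.0709, adjusted p = 0.00513) and in LGCAR against CAR by 0.51 (SE 0.0706, adjusted p = 0.00252). The difference between LGCAR and LG was -0.19 (log2 scale, SE 0.0680, edgeR adjusted p = 0.373) and that between CAR and NG -0.10 (SE 0.0716, adjusted p = 0.894).

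LINC00472, also listed as P53RRA, is a transcript reported to bind G3BP1 in the cytosol and to act as a tumour suppressor. The gene lies at chr6:71407864-71420745 on the minus strand, as a lincRNA with 6 exons. It had 69.1, 61.1 and 60.6 CPM in LGCAR, 64.0, 61.8 and 60.6 CPM in LG, 42.9, 49.0 and 51.5 CPM in CAR, and 45.01, 46.9 and 41.9 CPM in NG. Again every library with 5 mM glucose lay above every library with 10 mM glucose. LINC00472 rose in LG against NG by 0.48 (log2 scale, SE 0.0711, edgeR adjusted p = 0.00286), in LGCAR against NG by 0.51 (SE 0.0716, adjusted p = 0.00169) and in LGCAR against CAR by 0.41 (SE 0.0709, adjusted p = 0.00791). The last call was lost without LGCAR replicate 1, at an edgeR adjusted p of 0.0684, and when the ribosomal RNA share entered the fit, at 0.141.

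LINC01355 lies at chr1:23281309-23285518 on the minus strand as a single-exon lincRNA. Its level was 3.24, 3.25 and 3.35 CPM in LGCAR, 2.63, 2.22 and 2.64 CPM in LG, 2.75, 2.99 and 3.02 CPM in CAR, and 1.61, 1.93 and 1.996 CPM in NG. The NG libraries were the lowest 3 of the 12 and the LGCAR libraries the highest 3, with LG and CAR between them. LINC01355 rose in LGCAR against NG by 0.82 (SE 0.150, edgeR adjusted p = 0.00644), the largest log2 fold change among LINC genes in that comparison. CAR exceeded NG by 0.66 (log2 scale, SE 0.148, edgeR adjusted p = 0.894) and LG exceeded NG by 0.43 (SE 0.152, adjusted p = 0.181), and neither was called. At these levels a library held 34 to 73 counts of the gene, and the call was lost when NG replicate 1 and LGCAR replicate 3 were left out together, at an adjusted p of 0.0598.

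LINC03061, the LINC gene with the most counts, lies at chr13:109265487-109271075 on the plus strand, between LOC124903207 and IRS2. Its level was 953, 943 and 901 CPM in LGCAR, 905, 950 and 840 CPM in LG, 844, 894 and 940 CPM in CAR, and 836, 812 and 794 CPM in NG. LGCAR libraries all lay above NG libraries, while LG and CAR reached into the range of LGCAR. LINC03061 rose in LGCAR against NG by 0.20 (log2 scale, SE 0.0558, edgeR adjusted p = 0.0399). The call was lost in 7 of the 12 fits that left out a library, namely without any single NG or LGCAR library or LG replicate 2, with adjusted p-values from 0.0122 to 0.163 over the 12.

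LINC00960 lies at chr3:75672281-75679303 on the plus strand, and in GENCODE 29 10.03% of its exon bases overlap ZNF717 on the opposite strand. Within that overlap, reads of the pair cannot be told apart without strand. It had 3.73, 3.82 and 3.99 CPM in LGCAR, 4.77, 3.87 and 4.19 CPM in LG, 5.84, 5.55 and 5.09 CPM in CAR, and 5.07, 5.17 and 4.42 CPM in NG. LGCAR libraries all lay below the CAR and NG libraries, while 1 LG library fell within the LGCAR range. LINC00960 fell in LGCAR against CAR by 0.52 on the log2 scale (SE 0.123, edgeR adjusted p = 0.0448). The call was lost in 9 of the 12 fits that left out a library, namely without any single LGCAR or CAR library, NG replicates 1 or 2, or LG replicate 2, with adjusted p-values from 0.0331 to 0.150.

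**Figure D2:**
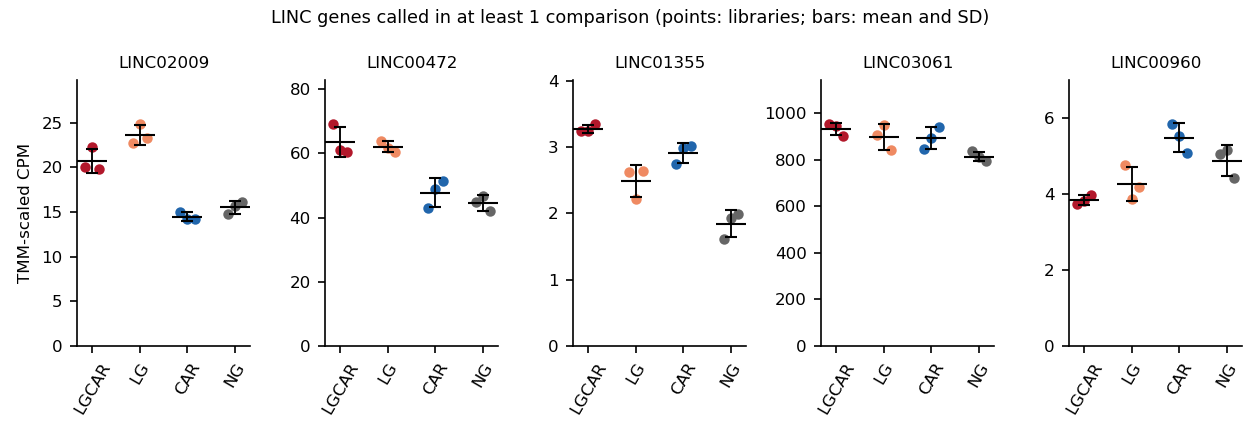
TMM-scaled CPM of the 5 called LINC genes by library (points), with the mean and SD of each group of 3 libraries, from LGCAR on the left to NG on the right. LINC02009 and LINC00472 are higher in both groups with 5 mM glucose, and LINC01355 is lowest in NG, at 1.61 to 1.996 CPM.

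**Figure D3:**
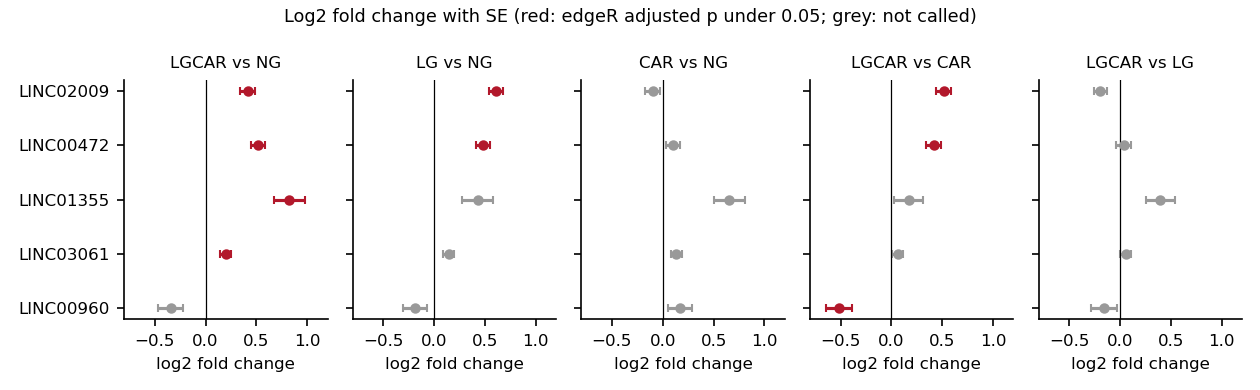
Log2 fold change with its standard error for the 5 called LINC genes in 5 comparisons, the first-named group over the second; red points were called by edgeR at an adjusted p under 0.05. LINC02009 and LINC00472 were called in LGCAR against NG, LG against NG and LGCAR against CAR, and no gene was called in CAR against NG or LGCAR against LG.

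Cariporide alone gave no called LINC gene. Between CAR and NG edgeR called 0 of 102, against 0.0% of all tested genes, and DESeq2 and limma-voom also called 0. At an unadjusted p under 0.05 there were 8 LINC genes, all higher in CAR, or 7.84%, against 4.53% of all genes in either direction and 2.28% that were higher. That count was 4 without CAR replicate 3, 14 without CAR replicate 1 or by library totals only, 5 with DESeq2 and 19 with the ribosomal RNA share in the fit. The libraries did not overlap in 11 genes that were higher in CAR, or 10.8%, against 4.44% of all genes. In 2 that were lower, or 1.96%, they did not overlap either, against 4.67%. LINC01355 had the smallest p of the LINC genes. None of these genes was called.

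Between LGCAR and LG, which differ by cariporide at 5 mM glucose, edgeR called 0 LINC genes, against 0.00662% of all genes, and DESeq2 and limma-voom called 0. At an unadjusted p under 0.05 there were 13, or 12.7%, against 11.9% of all genes, and the count was 5 without LG replicate 3, 8 without LGCAR replicate 1, 6 with DESeq2 and 7 with the ribosomal RNA share. LGCAR lay above LG without overlap in 13 genes, or 12.7%, and below in 9, or 8.82%, against 10.9% and 10.5%. The smallest p was that of LINC-PINT, a p53-induced transcript reported to interact with the PRC2 complex, at 10.7, 10.4 and 11.7 CPM in LGCAR, against 8.36, 9.43 and 8.57 CPM in LG. The LINC-PINT libraries did not overlap, and LGCAR exceeded LG by 0.32 on the log2 scale (SE 0.0913, edgeR adjusted p = 0.338). In GENCODE 29 its exons overlap a same-strand transcript over 30.4% of their length.

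The interaction, which asks whether the change with cariporide differs between 5 mM and 10 mM glucose, gave 0 called LINC genes with edgeR, against 0.00662% of all genes, and 0 with DESeq2 and limma-voom. At an unadjusted p under 0.05 there were 6, or 5.88%, against 3.12% of all genes. DESeq2 gave 0, and there were 2 without CAR replicate 1 and 3 without NG replicate 1. LINC01224 had the smallest p, with 11.6, 10.8 and 11.2 CPM in LGCAR, 9.41, 10.3 and 8.94 CPM in LG, 9.14, 9.45 and 10.9 CPM in CAR, and 10.2, 10.5 and 10.6 CPM in NG. LGCAR lay above LG, while CAR overlapped NG. The interaction for LINC01224 was 0.32 on the log2 scale (SE 0.128, edgeR adjusted p = 0.9999).

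As a set, the LINC genes lay slightly above the tested genes in each comparison with NG. In LGCAR against NG their median log2 fold change was 0.11, against 0.01 over all tested genes, with 65 genes above 0 and 37 below, where 51.7% of all tested genes were above 0. In LG against NG it was 0.09, against 0.01, with 63 genes above 0, where all genes had 51.9%. In CAR against NG it was 0.08, against 0.00, with 66 above 0, where all genes had 50.5%. These 3 comparisons share the NG libraries. In LGCAR against CAR and against LG, which do not use NG, the medians were 0.03 and 0.01. For the interaction, which also uses the NG libraries, the median was -0.07, against 0.00 over all tested genes. There, 37 LINC genes lay above 0 and 65 below, and the median was -0.11 to -0.04 with 1 library left out. In LGCAR against NG the median was 0.07 without LGCAR replicate 1, and in LG against NG it was 0.05 without LG replicate 1. The median of the renamed lncRNA genes, listed further below, was under 0 in the 3 comparisons with NG. These shifts were not tested.

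**Figure D4:**
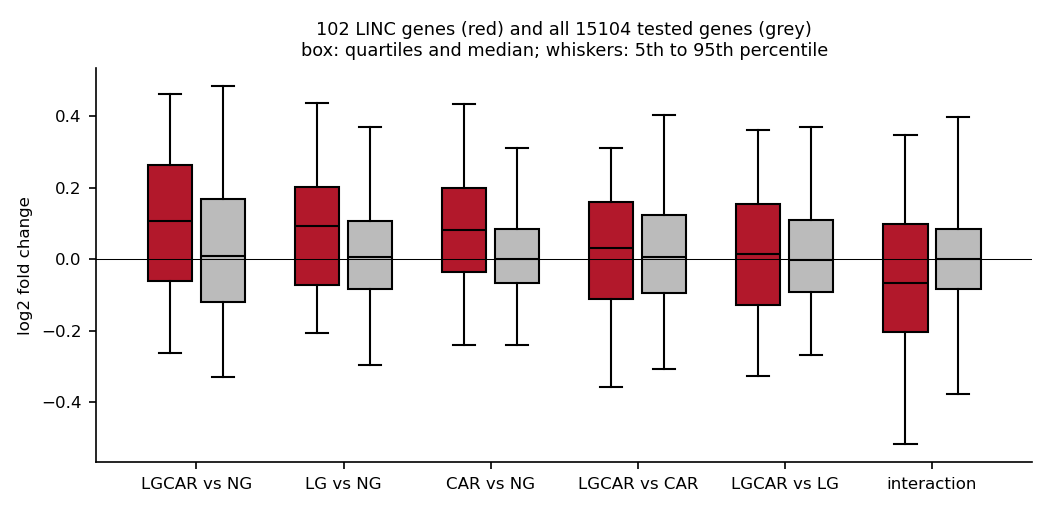
Log2 fold changes of the 102 LINC genes (red) and of all 15104 tested genes (grey) in 5 comparisons and the interaction; boxes show quartiles and median, whiskers the 5th to 95th percentile. In the 3 comparisons with NG the LINC medians are 0.11, 0.09 and 0.08, against 0.01, 0.01 and 0.00 over all genes.

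Summed over the 102 genes, the level over library totals was 1679 ± 55.7 CPM in LGCAR, 1640 ± 72.0 CPM in LG, 1661 ± 77.6 CPM in CAR and 1498 ± 14.4 CPM in NG (SD, n = 3 each). That was 12.1%, 9.50% and 10.9% more in LGCAR, LG and CAR than in NG, and the NG libraries did not overlap the others on this scale. With TMM factors the sums were 1704 ± 38.4 CPM in LGCAR, 1639 ± 79.6 in LG, 1628 ± 82.6 in CAR and 1508 ± 34.8 CPM in NG, and the lowest CAR library, at 1539 CPM, lay under the highest NG library, at 1540 CPM. The share of counts from ribosomal RNA genes was 10.2 ± 1.12% in LGCAR, 8.65 ± 0.649% in LG, 7.87 ± 0.723% in CAR and 9.48 ± 1.67% in NG, and NG lay within the range of the other groups. With ribosomal RNA genes left out of the totals the sums were 1870 ± 41.5 CPM in LGCAR, 1796 ± 90.3 in LG, 1804 ± 94.0 in CAR and 1656 ± 44.5 CPM in NG. Without LINC03061 they were 760 ± 25.7 CPM in LGCAR, 741 ± 21.7 in LG, 750 ± 33.3 in CAR and 689 ± 8.36 CPM in NG over library totals. NG had the lowest mean on each of these scales.

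The nearest tested gene on either side was then compared with each LINC gene, since some LINC transcripts act on adjacent genes. The 100 genes with a position had their nearest tested gene at a median of 22.3 kb, 23 overlapped a tested gene, and together they had 190 distinct neighbours. In LGCAR against NG 16 neighbours were called, or 8.42%, where the share over all genes was 8.75%. Called neighbours numbered 3 in LG against NG, or 1.58%, where the share over all genes was 1.73%. In LGCAR against CAR there were 2, or 1.05%, against 1.65%.

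Neither neighbour of LINC02009 was called: CCRL2, 6.99 kb away, differed by 0.20 in LG against NG (log2 scale, SE 0.0949, edgeR adjusted p = 0.336) and LTF, 11.98 kb away, by -0.33 (SE 0.317, adjusted p = 0.721). The same held for LOC124901339 and RIMS1 beside LINC00472, and for HTR1D and HNRNPR beside LINC01355. LTF, LOC124901339 and RIMS1 averaged only 0.629, 0.557 and 0.540 CPM. Their standard errors in LG against NG were 0.317, 0.450 and 0.389, so changes of the size seen in the LINC genes could be missed. Beside LINC03061, both neighbours were called in LGCAR against NG. IRS2, which encodes an adaptor of the insulin receptor and lies 482 kb away, had 61.8, 56.5 and 61.6 CPM in LGCAR, against 52.8, 45.9 and 42.6 CPM in NG. The IRS2 libraries did not overlap, and IRS2 rose by 0.35 (log2 scale, SE 0.0867, edgeR adjusted p = 0.0262).

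LOC124903207, 58.9 kb from LINC03061, had 2.65, 2.97 and 2.71 CPM in LGCAR, against 1.09, 1.59 and 1.78 CPM in NG. The libraries did not overlap, and it rose by 0.89 (log2 scale, SE 0.233, edgeR adjusted p = 0.0307). ZNF717, a zinc finger gene, lies 15.4 kb from LINC00960 between the RefSeq gene bounds and overlaps it in GENCODE 29. It had 9.82, 10.2 and 10.8 CPM in LGCAR, against 7.91, 6.86 and 7.14 CPM in NG. ZNF717 rose by 0.49 in that comparison (log2 scale, SE 0.134, edgeR adjusted p = 0.0350), where LINC00960 differed by -0.34 (SE 0.126, adjusted p = 0.0877).

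**Figure D5:**
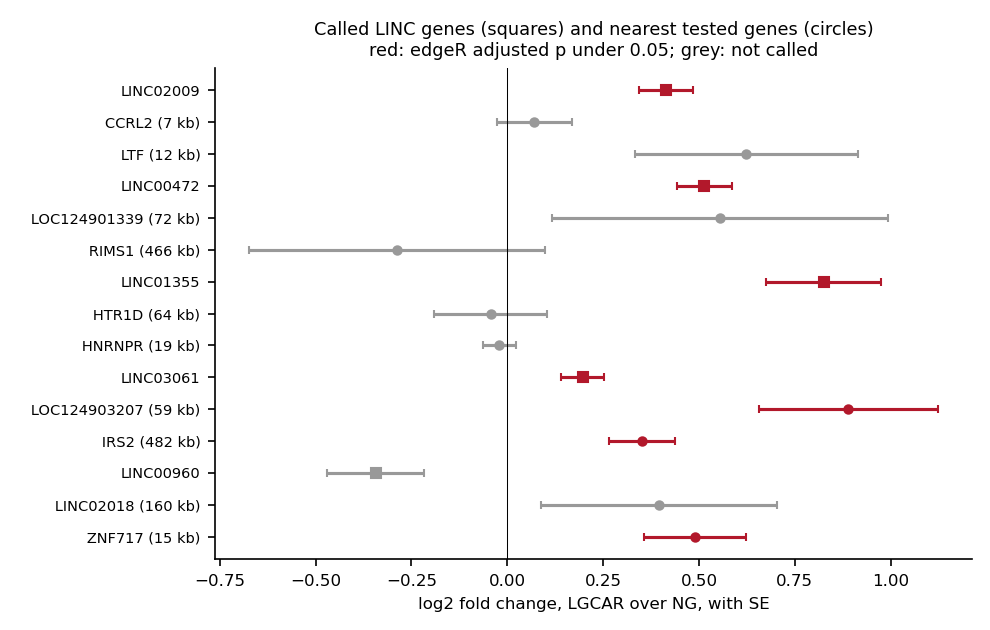
Log2 fold change of LGCAR over NG with its standard error for the 5 called LINC genes (squares) and the nearest tested gene on either side (circles), with distances in kb between RefSeq gene bounds; red marks an edgeR adjusted p under 0.05. IRS2, LOC124903207 and ZNF717 were called, at 0.35, 0.89 and 0.49, and the neighbours of LINC02009, LINC00472 and LINC01355 were not.

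Across the 12 libraries, the genes most like LINC02009, the LINC gene with the smallest p, were LINC01085 with Pearson's r of 0.91 on log2 CPM, LINC00472 with 0.82 and LINC00999 with 0.65. The most unlike were LINC01605 with -0.86, LINC00960 with -0.79 and LINC01128 with -0.75. These points share libraries and groups, so r is a description. LINC01085 had 2.75, 2.86 and 2.39 CPM in LGCAR, 2.51, 3.30 and 2.92 CPM in LG, 1.61, 1.39 and 1.86 CPM in CAR, and 1.80, 2.37 and 2.04 CPM in NG. Its libraries with 5 mM glucose lay above those with 10 mM glucose, which follows in part from its choice by likeness to LINC02009. In LGCAR against CAR, LINC01085 differed by 0.72 (log2 scale, SE 0.180, edgeR adjusted p = 0.0567).

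Several LINC genes have a reported role in cancer cells. None of the following was called in any of the comparisons in the edgeR fit of all 12 libraries. LINC00467, from which a mitochondrial micropeptide has been reported, averaged 5.93 ± 1.10 CPM in LGCAR, 6.63 ± 0.756 in LG, 5.12 ± 0.425 in CAR and 6.12 ± 0.871 CPM in NG (SD, n = 3 each). LINC00665, from which a micropeptide has been reported in triple-negative breast cancer, averaged 1.44 ± 0.136 CPM in LGCAR, 1.45 ± 0.376 in LG, 1.72 ± 0.122 in CAR and 1.64 ± 0.314 CPM in NG. LINC00673, reported to promote the breakdown of PTPN11 in pancreatic cells, averaged 7.40 ± 0.404 CPM in LGCAR, 7.98 ± 0.874 in LG, 8.57 ± 0.123 in CAR and 8.59 ± 1.53 CPM in NG. For these 3 genes all differences between groups missed the threshold in that fit. Without NG replicate 1, LINC00673 was called in LGCAR against NG, where 10.04% of all genes were called.

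LINC01116 averaged 6.23 ± 0.739 CPM in LGCAR, 7.59 ± 1.02 in LG, 7.91 ± 0.499 in CAR and 8.02 ± 1.15 CPM in NG (SD, n = 3 each), a difference of -0.36 in LGCAR against NG (log2 scale, SE 0.132, edgeR adjusted p = 0.0861). LINC00963 averaged 2.62 ± 0.374 CPM in LGCAR, 2.70 ± 0.418 in LG, 2.24 ± 0.255 in CAR and 2.05 ± 0.227 CPM in NG. LINC01138 averaged 2.45 ± 0.218 CPM in LGCAR, 2.68 ± 0.385 in LG, 3.36 ± 0.287 in CAR and 2.83 ± 0.444 CPM in NG. LGCAR was the lowest of the 4 groups for LINC01116 and LINC01138, without a call in the fit of all 12 libraries. In LGCAR against NG, LINC01116 was called without NG replicate 1, where 10.04% of all genes were. It was also called with only the groups compared, where 24.3% were. LINC01638, reported in triple-negative breast cancer, averaged 1.07 ± 0.246 CPM in LGCAR, 1.08 ± 0.160 in LG, 1.34 ± 0.0708 in CAR and 0.910 ± 0.210 CPM in NG. Of 23 LINC genes on a list reported in breast cancer cells, 7 were tested and 6 were among the 102. None was called in the fit of all 12 libraries. The list's median log2 fold change was -0.04 in LGCAR against NG, where all tested genes had 0.01. LINC01355 and LINC00472, which were called, are not on that list. The list was chosen with earlier results of these data known and may leave out genes with such reports. Its count of calls covers only the genes listed.

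Other long non-coding RNAs were called as well. Of 34 tested genes on a list of well-known lncRNAs with other names, 7 were higher and 3 lower in LGCAR than in NG, 2 higher and 1 lower in LG than in NG, and 3 higher and 2 lower in LGCAR than in CAR. Of all tested genes, 4.63% were higher and 4.12% lower in the first, 1.0% and 0.728% in the second, and 0.973% and 0.675% in the third. The list was chosen with earlier results of these data known, and its median log2 fold change was 0.06 in LGCAR against NG, where all tested genes had 0.01. NEAT1, the scaffold of nuclear paraspeckles, averaged 2135 ± 156 CPM in LGCAR and 1535 ± 109 CPM in NG (SD, n = 3 each), higher by 0.48 (log2 scale, SE 0.0746, edgeR adjusted p = 0.00300).

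MIR22HG, the host transcript of miR-22, fell to 20.2 ± 0.0581 CPM in LGCAR, against 31.2 ± 2.31 CPM in NG (SD, n = 3 each), by 0.63 on the log2 scale (SE 0.0717, edgeR adjusted p = 0.000283). In LG it averaged 22.6 ± 0.408 CPM and fell by 0.47 (log2 scale, SE 0.0697, adjusted p = 0.00286). UCA1, a cytoplasmic transcript first described in bladder carcinoma, rose in LG to 64.4 ± 4.83 CPM, against 47.9 ± 3.63 CPM in NG, by 0.43 (log2 scale, SE 0.0713, edgeR adjusted p = 0.00533). MIR17HG, the host of the miR-17-92 cluster, rose by 0.57 in LG against NG (log2 scale, SE 0.140, edgeR adjusted p = 0.0474).

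A further list held 27 renamed lncRNA and small-protein genes, of which 19 have an older LINC or NCRNA symbol in the reference tables and 20 were tested. In LGCAR against NG, NORAD, formerly LINC00657 and a binder of Pumilio proteins, rose to 586 ± 17.0 CPM, against 500 ± 27.1 CPM in NG (SD, n = 3 each), by 0.23 (log2 scale, SE 0.0606, edgeR adjusted p = 0.0319). In LG against NG, MIR210HG, host of the hypoxia-induced miR-210, fell to 5.96 ± 0.346 CPM, against 8.47 ± 0.831 CPM, by 0.51 on the log2 scale (SE 0.122, edgeR adjusted p = 0.0444). The other genes on that list were not called. Their list's median log2 fold change was -0.15 in LGCAR, -0.13 in LG and -0.04 in CAR, each against NG. The 102 LINC genes had 0.11, 0.09 and 0.08 there, so the renamed genes lay the other way. Of 24 genes of the nuclear exosome and noncoding RNA turnover, EXOSC4, an exosome subunit, was called lower in LGCAR than in NG, at -0.41 on the log2 scale (edgeR adjusted p = 0.0199), where 4.12% of all tested genes were lower, and none in the other comparisons. EXOSC4 was named after its value was seen.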

How the data were processed

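Whole-number counts per gene symbol were deposited by the authors, 1 table for each of the 12 libraries. Per the labels' protocols, total RNA was extracted with Trizol and libraries were made with the NEBNext Ultra II Directional kit. The submitters' processing notes name fastp, STAR, Salmon, GATK and the GRCh38 build, while versions, roles and the use of strand were not given in those sources. The 102 LINC genes and all gene lists were chosen with earlier results of these data known. The text names the 10 LINC genes with the most counts, those called or with the smallest p of a comparison without calls, those nearest the minimum, those on lists of roles, the neighbours of called genes, the most and least like LINC02009, and called genes of other lncRNA lists. LINC02035 is named because other settings called it. Library totals ran from 18069004 to 24837409 counts.

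Counts were fitted with edgeR 4.0.16 (R 4.3.3) in a robust quasi-likelihood model with 1 mean per group over all 12 libraries, TMM factors, filterByExpr by group and Benjamini-Hochberg adjustment over 15104 tested genes (common biological coefficient of variation 6.94%). The procedure was tested on simulated data. The standard error is the log2 fold change divided by the square root of F. Values by library are TMM-scaled CPM unless library totals are named. Settings tried were DESeq2 1.42.0, limma-voom 3.58.1, other size factors and filters, only the groups compared, a replicate block, ribosomal RNA share, and each library left out. Positions and promoters came from RefSeq on GRCh38.p14, and strand, exons and types from GENCODE 29. Near copies were found with blastn 2.17.0. No pair of libraries of 1 group agreed within sampling noise, chi-square values divided by their degrees of freedom being 2.82 to 24.6.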

Additional observations from a re-analysis of the deposited data

How the results depend on the processing

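The log2 fold changes behind the LINC calls, and those of the smallest p in comparisons without calls, kept their sign in every setting compared. Other log2 fold changes of single LINC genes were not followed across settings. LINC02009 kept its 3 calls in all settings, with adjusted p-values up to 0.0440. LINC00472 kept those against NG, up to 0.0237. In LGCAR against NG the count of called LINC genes, 4 with all libraries, became 10 with only the groups compared and 2 without NG replicate 1 and LGCAR replicate 3 together. The share of all genes called, 8.75% with all libraries, moved with it, to 24.3% and 1.71%. The count ran from 3 to 7 with 1 library left out, 7 being reached without NG replicate 1, CAR replicate 1 or LG replicate 3, where 10.04%, 17.2% and 14.8% of all genes were called. The cause was not tested. In LGCAR against CAR the count of 3 became 1 when the ribosomal RNA share entered the fit, where 0.119% of all genes were called against 1.65%, and ran from 1 to 3 with 1 library left out, 1 being without LGCAR replicate 1, where 0.351% were. In LG against NG it ran from 2 to 3. The calls of LINC03061 and LINC00960 were lost in 3 and 6 of the other 11 settings. DESeq2 gave no adjusted p for LINC01355 in LGCAR against NG and called LINC02035 instead. Its count was thus also 4, where 16.2% of all genes were called. LINC02035 was also called there by edgeR without a filter and with only the groups compared. The same held without NG replicate 1, CAR replicate 1, LG replicate 1 or LG replicate 3.

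Replicate numbers showed no clear pairing of the samples: same-numbered libraries correlated at -0.11 to 0.14 over 18 pairs, 2 above 0.1. Libraries with different numbers correlated at -0.20 to 0.23 over 36 pairs, 5 above 0.1, and 5 of 12 libraries were closest to their own number. These correlations cannot show whether same-numbered libraries shared a batch. With the replicate block the counts were 3 for LGCAR and 2 for LG against NG, 2 for LGCAR against CAR and 0 in the other comparisons, where 4.52%, 0.973% and 0.894% of all genes were called in the first 3. The block ended the calls of LINC03061, at an edgeR adjusted p of 0.0709, and LINC00960, at 0.0731.

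The minimum gave 140 genes at 0.5 CPM and 76 at 2 CPM. The summed level exceeded that of NG in CAR by 7.99% with TMM factors, 8.93% without ribosomal RNA genes and 8.85% without LINC03061. In LG the excess was 8.49% without ribosomal RNA genes and 7.55% without LINC03061, and in LGCAR 10.2% without LINC03061. Depth limits the low genes most: counts of the 102 genes in a library had a median of 86.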
